A study of Mus musculus with 8 samples.

Results

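The apolipoproteins and the microsomal triglyceride transfer protein that together build and clothe very low density lipoprotein (VLDL) were followed here as 10 genes, picked by symbol out of 45706 genes in a liver RNA sequencing table: Apob, Mttp, Apoa1, Apoa2, Apoa4, Apoa5, Apoc1, Apoc2, Apoc3 and Apoe. All 10 were found, and all 10 passed the filter on low counts that left 14629 genes for testing. The livers came from 8 female C57BL/6J mice aged 4 months, each fasted overnight and each giving 1 library. Of these, 4 were wild type (WT) and 4 were homozygous for a knock-in of perilipin 5 (Plin5) that puts alanine in the place of a serine (S155A in the labels, SA/SA here). Perilipin 5 coats lipid droplets, and that serine is a site phosphorylated by protein kinase A. The knock-in was made by CRISPR in the whole body at the endogenous gene, so the change is carried by every cell type and not by hepatocytes alone. Since all 8 mice were fasted, the comparison is of genotype in the fasted state and holds no fasting effect.

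VLDL is assembled in the endoplasmic reticulum of hepatocytes, where microsomal triglyceride transfer protein loads triglyceride onto apolipoprotein B as it is made. The exchangeable apolipoproteins of the A, C and E classes then join the particle or circulate on high density lipoprotein (HDL), and they switch lipoprotein lipase on or off and steer remnants to receptors. In a fasted liver, fatty acids that arrive from adipose tissue are either oxidized, stored in lipid droplets or sent out again as VLDL, which is why these genes bear on a mutation in a droplet protein.

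The genes lie in a few places of the mouse genome (build GRCm38, GENCODE gene models). Apoa1, Apoc3, Apoa4 and Apoa5 sit in a cluster of 43.3 kb on chromosome 9, from 46228580 to 46271919, with Apoc3 on the minus strand and the others on the plus strand. Apoc2, Apoc1 and Apoe share 27.6 kb of the minus strand of chromosome 7, from 19671579 to 19699188. Apob is on chromosome 12 (7977648 to 8016835, plus strand, 29 exons), Mttp on chromosome 3 (138089854 to 138144968, minus strand, 18 exons) and Apoa2 on chromosome 1 (171225054 to 171226379, plus strand, 4 exons). Mttp overlaps Trmt10a, which stayed between 2.99 and 4.72 CPM in the 8 mice (counts scaled to a common library size), and Apoa4 overlaps Gm10680, which did not exceed 0.69 CPM. Apoc2 overlaps Gm44805, a readthrough with the neighbouring Apoc4. Gm44805 had no row under that name in the deposited counts, so reads of those models may not be told apart in full. Gm43691 (which overlaps Mttp), Gm47528 (Apoa4) and Gm47544 (Apoa5) had no row either.

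The promoter windows of 5 genes are printed, chosen by the role of the genes or by their values below. Apob and Mttp were taken as the core pair of VLDL assembly. Apoa4 and Apoa5 are the neighbours with the widest spread between mice, and Apoc2 is the gene whose genotypes did not overlap. RefSeq's table (GRCm38.p6; 250 bases before and 50 after the start) held windows for 8 of the 10 genes, and none for Apoc1 and Apoc3. Capitals mark matches on either strand to CAAAGNNC, a core of sites bound by the nuclear receptor HNF4A, to the E-box CACGTG, or to TGACG, part of the cAMP response element. The Apob window is chr12:7977427-7977726, plus strand, the Mttp window chr3:138143369-138143668, minus strand, the Apoa4 window chr9:46240594-46240893, plus strand, the Apoa5 window chr9:46268358-46268657, plus strand, and the Apoc2 window chr7:19677892-19678191, minus strand. Each is written 5′ to 3′ along the gene.
Apob: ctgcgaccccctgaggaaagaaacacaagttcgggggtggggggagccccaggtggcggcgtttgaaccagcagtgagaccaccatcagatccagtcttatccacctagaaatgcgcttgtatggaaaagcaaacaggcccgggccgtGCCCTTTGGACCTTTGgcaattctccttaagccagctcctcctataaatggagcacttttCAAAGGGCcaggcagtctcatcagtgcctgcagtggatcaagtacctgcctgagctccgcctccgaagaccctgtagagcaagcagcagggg
Mttp: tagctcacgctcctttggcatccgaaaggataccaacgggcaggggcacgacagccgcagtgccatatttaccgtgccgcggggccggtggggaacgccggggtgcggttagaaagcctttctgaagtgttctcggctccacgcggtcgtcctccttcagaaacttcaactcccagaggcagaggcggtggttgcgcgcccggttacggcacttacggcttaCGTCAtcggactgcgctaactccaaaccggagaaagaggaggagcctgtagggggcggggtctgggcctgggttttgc
Apoa4: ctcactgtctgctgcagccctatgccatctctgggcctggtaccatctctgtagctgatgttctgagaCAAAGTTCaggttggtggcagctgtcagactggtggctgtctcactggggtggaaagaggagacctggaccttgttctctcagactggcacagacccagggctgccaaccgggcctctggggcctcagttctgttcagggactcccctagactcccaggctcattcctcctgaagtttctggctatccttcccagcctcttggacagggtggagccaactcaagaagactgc
Apoa5: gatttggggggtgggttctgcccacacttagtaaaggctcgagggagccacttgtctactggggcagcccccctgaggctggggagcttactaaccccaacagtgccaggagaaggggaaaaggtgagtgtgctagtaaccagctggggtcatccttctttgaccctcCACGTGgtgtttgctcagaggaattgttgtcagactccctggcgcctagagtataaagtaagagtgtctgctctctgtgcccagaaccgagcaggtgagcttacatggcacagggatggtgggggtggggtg
Apoc2: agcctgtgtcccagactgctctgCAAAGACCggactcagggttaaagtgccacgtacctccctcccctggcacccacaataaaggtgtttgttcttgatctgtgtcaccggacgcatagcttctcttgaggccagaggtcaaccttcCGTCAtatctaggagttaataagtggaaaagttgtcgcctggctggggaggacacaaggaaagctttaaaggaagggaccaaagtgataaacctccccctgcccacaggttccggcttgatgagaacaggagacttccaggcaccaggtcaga
The 8 genes had 12 windows, some having more than 1 start. The HNF4A core was found in 4 of the 12, each of another gene, where 17.7% of 32851 RefSeq windows held it. With positions counted from RefSeq's start, it lay at -102, -94 and -42 in Apob, where the first pair of matches abut, at -182 in Apoa4, at -227 in Apoc2, and at 3 in one of the alternative windows of Apoe. The E-box was found in 2 of the 12, both overlapping windows of Apoa5, at -82 in the one printed, against 7.15% of all windows. TGACG was found in 3 of the 12, at -28 in Mttp, at -103 in Apoc2 and at -23 in Apoa2, against 20.8% of all windows. Of the printed windows, those of Apob, Mttp, Apoa4 and Apoa5 have starts that differ from the GENCODE models. The Mttp window, which ends at 138143668, does not reach the GENCODE start at 138144968. The GENCODE starts of Apob (7977648), Apoa4 (46240696) and Apoa5 (46268633) lie inside their printed windows, so positions counted from them would differ. The other Apoa5 window, chr9:46268383-46268682, has its start at the GENCODE start, and there the E-box is at -107. These matches describe letters only.

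The libraries held 39709785 estimated counts (SA/SA replicate 3) to 54540864 (WT replicate 1). The smallest estimated count of any of the 10 genes in any mouse was 9899.6, for Apoc2 in SA/SA replicate 3. Plin5 itself measured 254, 194, 183 and 194 CPM in WT replicates 1 to 4. In SA/SA replicates 1 to 4 it measured 457, 276, 192 and 386 CPM. SA/SA replicates 1, 2 and 4 lay above every WT mouse, and SA/SA replicate 3 lay within the WT range. The log2 fold change of SA/SA over WT was 0.67 (SE 0.24, edgeR unadjusted p = 0.0193 and adjusted p = 0.993, exact permutation p = 0.114, two-sided). A single changed codon is not read by gene counts, so these values do not check the labels. The labels name hepatocytes as the cell type of a liver sample. The summed level of 7 hepatocyte markers was 85015 to 125772 CPM, and markers of Kupffer cells (324 to 712 CPM) and of stellate cells (132 to 356 CPM) were also present, so the libraries were not of hepatocytes alone. In such bulk samples, fewer cells of a type and less RNA per cell cannot be told apart. In SA/SA all 8 stellate cell and all 5 red blood cell markers had lower fitted values, and all 11 Kupffer cell and all 6 lymphocyte markers higher ones, but no gene of the 10 marker lists was called in edgeR, and their part in the results was not tested. In markers of other cells 3 libraries stood apart: WT replicate 4, with 198 CPM of endothelial markers against at most 160.2 in every other mouse, WT replicate 2, with 29.2 CPM of pancreatic acinar markers against at most 0.612 in every other mouse, and SA/SA replicate 3, with 16.2 CPM of lymphocyte markers against at most 7.60. WT replicate 4 was also highest in red blood cell markers (2647 CPM against at most 1462 in every other mouse) and in stellate cell markers (356 against at most 294). WT replicate 2 was also highest in cholangiocyte markers, with 85.4 CPM against at most 51.2. The numbers that the labels give the samples fall apart into low ones, up to 123, and high ones, from 830. Replicates 1 and 4 of WT and of SA/SA carry low numbers and replicates 2 and 3 carry high numbers, and what these numbers stand for is not stated.

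The 10 genes took up a large share of the liver's messages. They made up 6.36% ± 0.62 of all counts in WT livers and 6.30% ± 0.39 in SA/SA livers (SD, n = 4), and 6 of the 10 were among the 50 genes with the most counts. Per kilobase of transcript, the scale on which genes can be compared, Apoe had the highest median over the 8 mice at 19014 CPM per kb. Apoa2 (17982 CPM per kb) and Apoa1 (12196 CPM per kb) followed, ahead of Apoc1 (7128) and Apoc3 (4286). Apoa4 (1274) and Apoa5 (1120) formed a middle pair, and Apoc2 (495), Apob (263) and Mttp (89.1) came last. The ranges over mice overlapped between Apoe and Apoa2, between Apoa2 and Apoa1, and between Apoa4 and Apoa5, and no other neighbours in this order overlapped. Within single mice Apoe was above Apoa2, and Apoa2 above Apoa1, in 8 of 8, whereas Apoa4 was above Apoa5 in 4 of 8. The scaffold of the VLDL particle and its loading protein were therefore the least abundant transcripts of the group per length, and the HDL proteins and Apoe the most abundant. All these levels rest on 1 transcript length a gene, the full annotated length, which is the same in every mouse. The medians of Apoe and Apoa2 were 1.06-fold apart, so their order depends on the lengths used. The 8 of 8 mice are no separate support for that order.

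**Figure D1:**
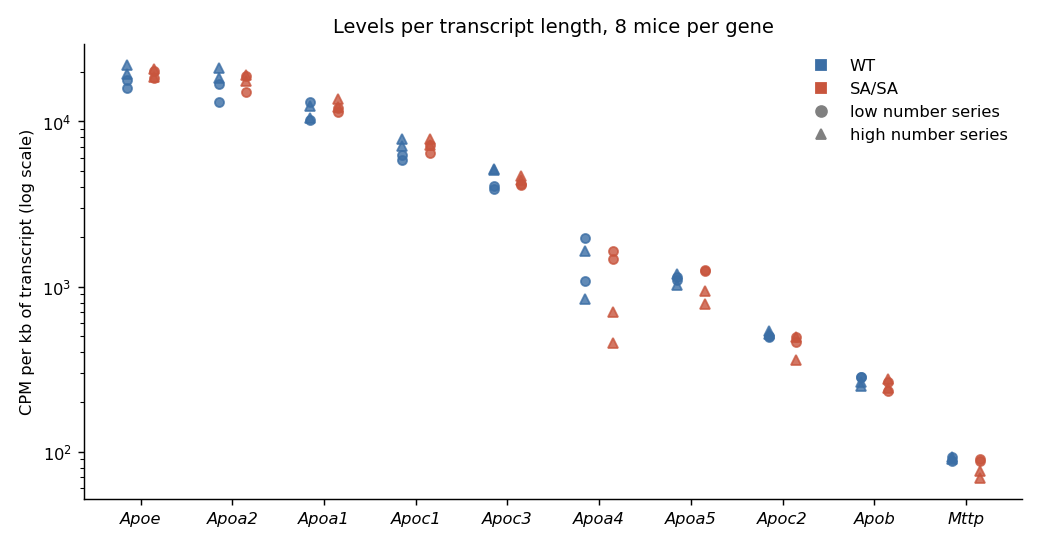
CPM per kilobase of transcript (vertical axis, log scale) for the 10 genes, 1 point a mouse, WT blue and SA/SA red, circles for the low and triangles for the high number series. Apoe (median 19014 CPM per kb) is at the left end and Mttp (89.1 CPM per kb) at the right, and Apoa4 has the longest spread of points.

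None of the 10 genes differed between SA/SA and WT livers at an adjusted p under 0.05 in edgeR's quasi-likelihood test (0 of 10, where 0% of the 14629 tested genes did). At an unadjusted p under 0.05 the count was also 0, where 3.4% of all tested genes passed, and limma-voom called none of the 10. DESeq2 also called none of the 10, where it called 0.0314% of the 22309 genes it gave an adjusted p. Of the 10, 4 were higher and 6 lower in SA/SA, with a median log2 fold change of -0.07 beside -0.005 over all tested genes, and in 8 of 10 the difference was smaller than its standard error. Without WT replicate 2 and SA/SA replicate 3 the count called was also 0 and the median was 0.02, and without WT replicate 4 as well these were 0 and 0.04. The fits were tight: the median standard error was 0.13 on the log2 scale, against 0.19 over all tested genes. For the 9 genes other than Apoa4, the 95% intervals of the SA/SA to WT ratio lay between 0.738- and 1.30-fold. Adjusted p-values in edgeR were at least 0.993 for every one of the 10.

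**Figure D2:**
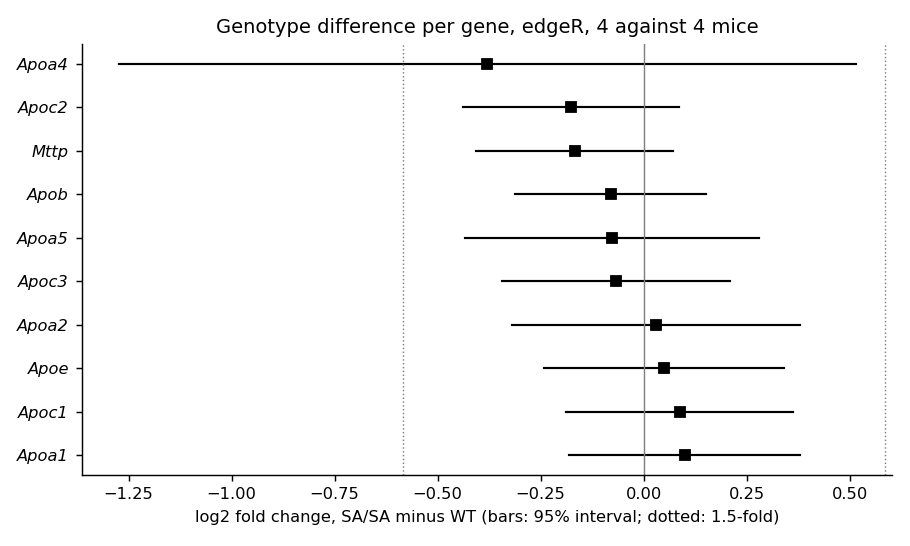
Log2 fold change of SA/SA over WT for the 10 genes from edgeR (squares), with 95% intervals (bars), 4 against 4 mice, and dotted lines at 1.5-fold either way. Every interval crosses 0, and that of Apoa4 (-1.27 to 0.51) is the widest.

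Apob, the scaffold that no VLDL particle can form without, was steady across the 8 livers. It measured 3929, 3667, 3473 and 3929 CPM in WT replicates 1 to 4 and 3270.2, 3847, 3403 and 3669 CPM in SA/SA replicates 1 to 4. The genotypes overlapped, and the lowest value was that of SA/SA replicate 1. Means were 3749.6 ± 222 CPM in WT and 3547 ± 259.8 CPM in SA/SA (SD, n = 4), a log2 fold change of -0.08 (SE 0.10, 95% interval -0.31 to 0.15; exact permutation p = 0.257, two-sided). Its SD within genotype on the log2 scale, 0.0964, was in the lowest 4.9% of the tested genes.

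Mttp, whose product loads lipid onto apolipoprotein B, was tightly grouped in WT and more spread in SA/SA. It measured 349, 359, 366 and 368 CPM in WT replicates 1 to 4, and 349, 304, 274 and 357 CPM in SA/SA replicates 1 to 4. SA/SA replicates 2 and 3, both of the high number series, were the lowest of the 8 mice, while SA/SA replicates 1 and 4 lay within the WT range. Means were 361 ± 8.37 CPM in WT and 321 ± 39 CPM in SA/SA (SD, n = 4), a log2 fold change of -0.17 (SE 0.11, 95% interval -0.41 to 0.07; exact permutation p = 0.0857, two-sided). Without SA/SA replicate 3 it was -0.097.

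**Figure D3:**
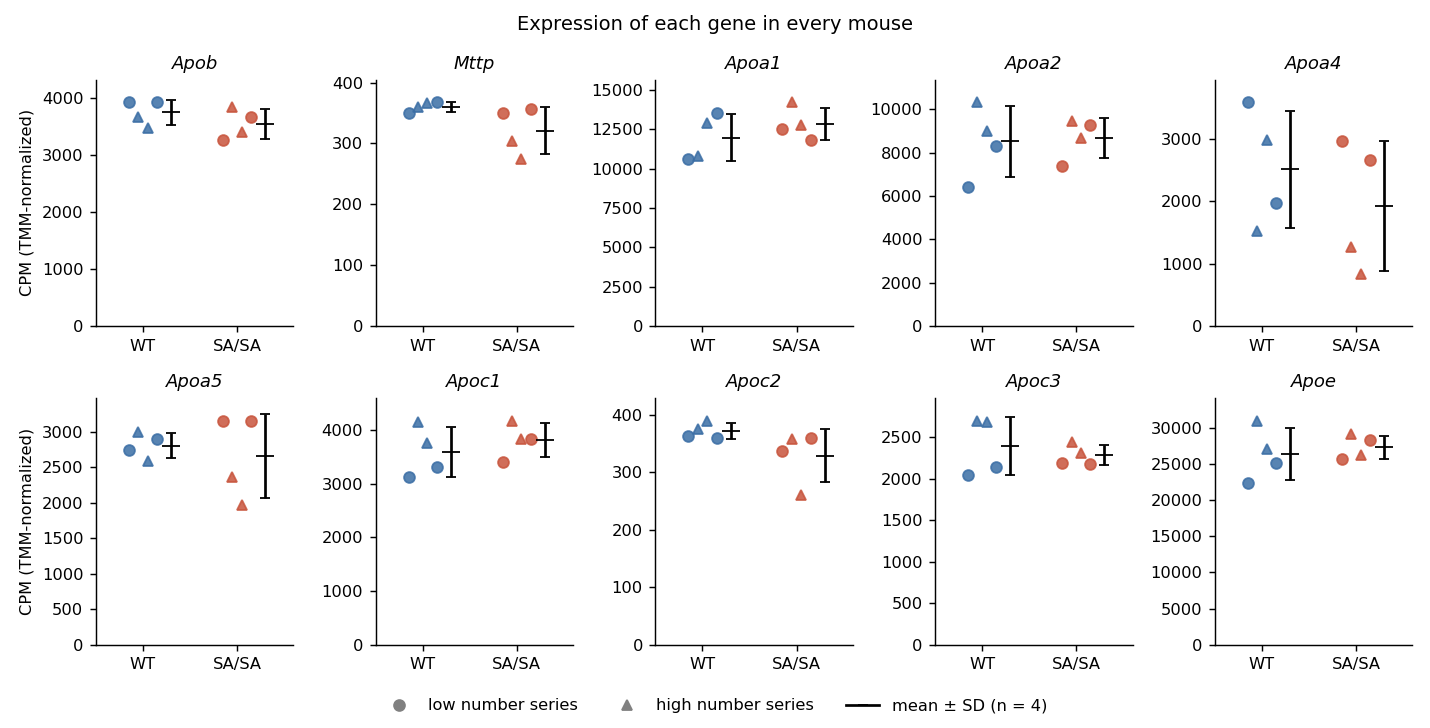
CPM of each of the 10 genes in every mouse (vertical axis from 0; WT blue, SA/SA red; circles low, triangles high number series), with mean ± SD of each genotype (n = 4) at the side. Genotypes overlap for every gene but Apoc2, and in Mttp, Apoa4 and Apoa5 the SA/SA triangles lie below the other SA/SA mice.

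The main HDL proteins, Apoa1, which also activates the plasma enzyme LCAT, and Apoa2, differed between genotypes by less than the spread between mice. Apoa1 measured 10622, 10810.3, 12926 and 13556 CPM in WT replicates 1 to 4 and 12496, 14235, 12751 and 11851 CPM in SA/SA replicates 1 to 4. The WT mice fell in a lower and a higher pair, and the SA/SA mice spanned the higher WT pair. Means were 11978 ± 1482 and 12833 ± 1008 CPM (SD, n = 4 each), a log2 fold change of 0.10 (SE 0.13, 95% interval -0.18 to 0.38; exact permutation p = 0.343, two-sided). Apoa2 measured 6423, 10326, 9004 and 8313 CPM in WT and 7394, 9435, 8691 and 9249 CPM in SA/SA, in the same order of replicates. WT replicates 1 and 2 were the lowest and the highest of all 8 mice, so that every SA/SA value lay inside the WT range. The log2 fold change of Apoa2 was 0.03 (SE 0.16, 95% interval -0.32 to 0.38; exact permutation p = 0.8, two-sided), and its sign turned to -0.013 with library size alone as the scale, to -0.0027 with the 50 most abundant genes left out of the scale and to -0.016 with the 10 genes themselves left out.

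Apoa4, an apolipoprotein of triglyceride-rich particles and HDL that mouse liver makes beside the intestine, varied most of the 10. It measured 3591, 1520.0, 2976 and 1968 CPM in WT replicates 1 to 4 and 2973, 1268, 831 and 2656 CPM in SA/SA replicates 1 to 4. The highest mouse was 4.32 times the lowest, the genotypes overlapped over most of their range, and each genotype held a higher and a lower pair of mice. Means were 2514 ± 941 CPM in WT and 1932 ± 1042 CPM in SA/SA (SD, n = 4), a log2 fold change of -0.38 (SE 0.40, 95% interval -1.27 to 0.51; exact permutation p = 0.371, two-sided). The SD within genotype was 0.74 on the log2 scale. Apoa4 was the only one of the 10 with such an SD above 0.5, which 22.4% of all tested genes had. Without SA/SA replicate 3 the log2 fold change was -0.13, and without SA/SA replicate 1 it was -0.67. Of the enterocyte markers, Sis and Alpi were at 0 in every mouse, Lct, Cdh17 and Vil1 reached at most 0.739 CPM, and Fabp2, which was at 122 to 179 CPM, made up nearly the whole sum of the list.

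Apoa5, whose product aids lipoprotein lipase, lies beside Apoa4 and also spread more in SA/SA. It measured 2739, 2993, 2582 and 2893 CPM in WT replicates 1 to 4 and 3147, 2361, 1962 and 3155 CPM in SA/SA replicates 1 to 4. No SA/SA mouse fell inside the WT range: replicates 1 and 4 were above it and replicates 2 and 3 below it. Means were 2802 ± 179.8 CPM in WT and 2657 ± 594 CPM in SA/SA (SD, n = 4), a log2 fold change of -0.08 (SE 0.16, 95% interval -0.43 to 0.28; exact permutation p = 0.571, two-sided). Without SA/SA replicate 3 the log2 fold change was 0.05, so this 1 library set its sign.

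Among the C apolipoproteins, Apoc2, the cofactor that lipoprotein lipase needs, was the only one of the 10 genes whose genotypes did not overlap. It measured 364, 375, 390.3 and 360.3 CPM in WT replicates 1 to 4 and 338, 359, 261 and 359 CPM in SA/SA replicates 1 to 4. The gap between the lowest WT mouse and the highest SA/SA mouse was about 1 CPM, and SA/SA replicate 3 lay far below the other SA/SA mice. Such a count, 1 of 10, stands beside the 2.3% of all tested genes that did not overlap, and it became 0 of 10 under library size alone, with the 50 most abundant genes left out of the scale, or with the 10 genes left out. Means were 372 ± 13.5 CPM in WT and 329 ± 46.4 CPM in SA/SA (SD, n = 4), a log2 fold change of -0.18 (SE 0.12, 95% interval -0.44 to 0.09). The exact permutation p of 0.0286, two-sided and unadjusted, is the smallest that 70 splits of 8 mice can give, and edgeR's adjusted p was 0.993. Without SA/SA replicate 3 the log2 fold change was -0.079.

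Apoc3, which inhibits lipoprotein lipase and remnant uptake, measured 2043, 2702, 2688 and 2136 CPM in WT replicates 1 to 4 and 2193, 2444, 2316 and 2183 CPM in SA/SA replicates 1 to 4. All 4 SA/SA mice lay inside the WT range, between the lower WT pair of the low number series and the higher WT pair of the high number series. The log2 fold change was -0.07 (SE 0.12, 95% interval -0.34 to 0.21; exact permutation p = 0.6, two-sided). Apoc1, an inhibitor of receptor-mediated uptake, measured 3119.9, 4152, 3759 and 3319 CPM in WT and 3411, 4177, 3836 and 3825 CPM in SA/SA, in the same order. The genotypes overlapped, with WT replicate 1 lowest and SA/SA replicate 2 highest. The log2 fold change was 0.09 (SE 0.12, 95% interval -0.19 to 0.36; exact permutation p = 0.343, two-sided).

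Apoe, the ligand by which remnants are taken up through receptors of the LDL receptor family, had the highest CPM of the 10 genes. It measured 22441, 31090.4, 27199.6 and 25166 CPM in WT replicates 1 to 4 and 25789, 29179, 26345 and 28343 CPM in SA/SA replicates 1 to 4. As for Apoa2, WT replicates 1 and 2 were the lowest and the highest of the 8 mice and every SA/SA mouse lay between them. Means were 26474 ± 3643 CPM in WT and 27414 ± 1608 CPM in SA/SA (SD, n = 4), a log2 fold change of 0.05 (SE 0.13, 95% interval -0.24 to 0.34; exact permutation p = 0.629, two-sided). Without WT replicate 1 it was -0.017.

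Except in Mttp and Apoc2, the SD between mice within genotype was larger than the genotype difference on the log2 scale. For Mttp that SD was 0.13 beside a log2 fold change of -0.17, and for Apoc2 0.16 beside -0.18. Differences between single mice ran across groups of genes. WT replicate 1 was the lowest of the 8 mice for 5 genes, Apoa1, Apoa2, Apoc1, Apoc3 and Apoe, at -0.41 to -0.19 on the log2 scale from the mean of the mice, and the highest for Apob and Apoa4. The 5 low genes have transcripts of 492 to 1408 bases, but Apoc2, at 727 bases, was at 0.06 in that mouse. Over 177 genes of at least 100 CPM and under 1000 bases, the median of WT replicate 1 was also low, at -0.17 relative to the mean of the mice, while over 411 genes of at least 3000 bases it was 0.06. SA/SA replicate 3 was the lowest for 4 other genes, Apoa4 (-1.27 on the log2 scale from the mean), Apoa5 (-0.46), Apoc2 (-0.42) and Mttp (-0.31). That library had the fewest counts, the highest lymphocyte marker sum and the highest hepatocyte marker sum (125772 CPM). Whether transcript length, depth or cell makeup has a part in these values was not tested.

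**Figure D4:**
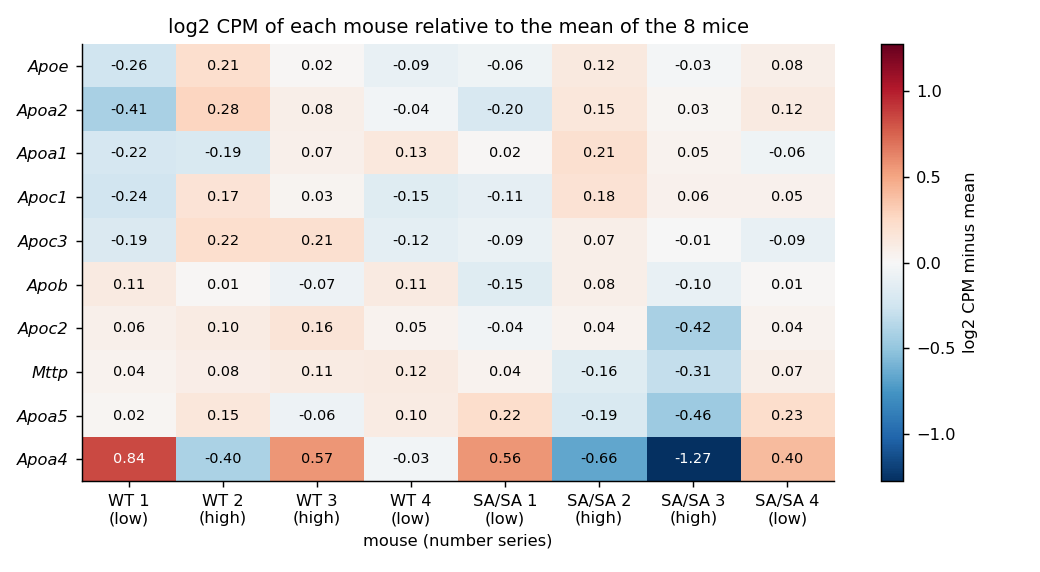
Log2 CPM of each gene (rows) in each mouse (columns, with number series) minus the mean of the 8 mice, red above and blue below. WT replicate 1 is blue for Apoe, Apoa2, Apoa1, Apoc1 and Apoc3, and SA/SA replicate 3 is blue for Apoc2, Mttp, Apoa5 and Apoa4, down to -1.27.

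The genotype difference was also taken within each number series. Among low-numbered mice, 2 a genotype, 7 of the 10 genes were higher in SA/SA with a median difference of 0.07 in log2 CPM, and among high-numbered mice 3 of the 10 were higher with a median of -0.14. The widest contrast was in Apoa4, at 0.08 among low-numbered and -1.05 among high-numbered mice. Apoa5 differed by 0.16 and -0.37, Mttp by -0.02 and -0.33, and Apoc2 by -0.05 and -0.32. Apoa2 (0.18 and -0.09), Apoe (0.19 and -0.07), Apoc3 (0.07 and -0.18) and Apoc1 (0.17 and 0.02) were also lower among high-numbered mice. Apob ran the other way, with -0.18 and then 0.02, as did Apoa1 with 0.02 and 0.19. No interaction of genotype with number series passed an adjusted p of 0.05 in edgeR, for the 10 genes or for any other (0% of tested genes). Apoa5 was the only one of the 10 with an unadjusted p under 0.05, where 11.1% of all tested genes had one: its interaction was -0.53 on the log2 scale (edgeR adjusted p = 0.399). Apoa4 followed at -1.12 (edgeR adjusted p = 0.477). Apoa5 and Apoc3, 2 of the 10, had both SA/SA mice above both WT mice among the low numbers and below them among the high numbers, as did 9.49% of tested genes in one order or the other.

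**Figure D5:**
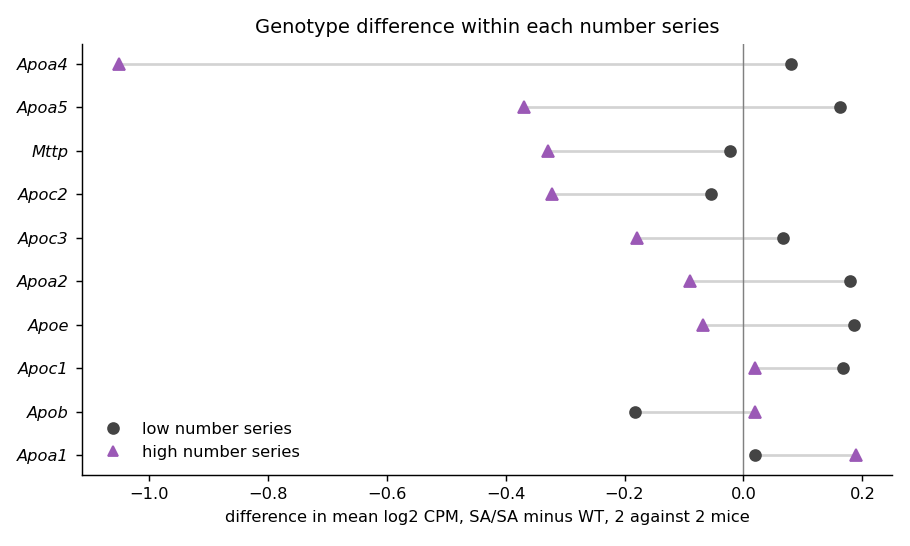
Difference in mean log2 CPM, SA/SA minus WT, for each gene in the low (circles) and the high (triangles) number series, 2 against 2 mice each. The triangles of Apoa4 (-1.05), Apoa5, Mttp and Apoc2 lie farthest to the left of 0. Those of Apoc3, Apoa2 and Apoe also lie to the left of 0, with their circles to the right.

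Across genotypes, Apoa4 was lower in the high series than in the low series with a log2 difference of -0.86 (edgeR adjusted p = 0.308), and Apoc3 was higher, with 0.24 (edgeR adjusted p = 0.338). These were the 2 of the 10 genes with an unadjusted p under 0.05 for the series, where 12.8% of all tested genes had one and 0% passed after adjustment.

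No gene around the lipoprotein pathway was called in edgeR either. Of 23 partners of VLDL assembly and secretion, 8 were higher and 15 lower in SA/SA, and the median log2 fold change was -0.03. Only Apobec1, the enzyme that edits Apob messenger RNA and so gives the shorter form of apolipoprotein B, had an unadjusted p under 0.05, 1 of 23 beside the 3.4% of all tested genes. It measured 14.1, 8.01, 11.3 and 14.1 CPM in WT replicates 1 to 4 and 7.58, 8.09, 7.10 and 10.5 CPM in SA/SA replicates 1 to 4. The genotypes overlapped through WT replicate 2, which was level with the SA/SA mice. The log2 fold change was -0.51 (SE 0.20, edgeR adjusted p = 0.993; exact permutation p = 0.0857, two-sided). A gene-level table does not show how much of the Apob message was edited.

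Of 9 tested genes among 11 other apolipoproteins, 4 were higher and 5 lower, with a median log2 fold change of -0.0087, and none was called. Of 11 tested genes that act on lipoproteins in plasma, such as the lipases and their regulators, 9 were higher and 2 lower, with a median of 0.12, and none was called or had an unadjusted p under 0.05. Of 25 regulators of apolipoprotein genes, 16 were higher and 9 lower, with a median of 0.06, and again none was called or had an unadjusted p under 0.05. Creb3l3, a fasting-activated factor known to drive Apoa4, was named after its values were seen, as was Hnf4a. Creb3l3 was 565 ± 30.5 CPM in WT and 599 ± 41.8 CPM in SA/SA (SD, n = 4; log2 fold change 0.08, SE 0.10). Hnf4a was 746 ± 160 CPM in WT and 844 ± 248 CPM in SA/SA (SD, n = 4; log2 fold change 0.18, SE 0.23).

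The genes whose levels followed Apoa4 most closely over the 8 mice were Hsd17b4 (Pearson r = 0.99), a peroxisomal enzyme of fatty acid oxidation, then Phf21a (0.978), RP23-342N8.2 (0.973), Hhex (0.972) and Ap5m1 (0.972). They were ranked over all tested genes, of which 129 had an r above 0.9. All genes were measured in the same 8 libraries, so the values are a description. Hsd17b4 measured 747, 619, 725 and 625 CPM in WT replicates 1 to 4 and 713, 585, 506 and 691 CPM in SA/SA replicates 1 to 4. Hhex, a transcription factor of the liver, ran from 34.7 to 84.0 CPM in WT and from 14.5 to 79.3 CPM in SA/SA. Both were lowest in SA/SA replicate 3 and highest in WT replicate 1, as Apoa4 was. RP23-342N8.2 did not exceed 0.352 CPM, a level at which such a match says little.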

How the data were processed

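Liver RNA of 4 WT and 4 SA/SA fasted mice was sequenced by the authors (stranded mRNA libraries, 100 bp paired reads). The values the authors deposited are gene-level estimated counts from salmon, length-scaled and without library-size normalization. The submitters' processing notes name bcl2fastq, STAR, SAMtools, MultiQC, DESeq2 and build GRCm38. The salmon version, annotation and use of strand in counting are not given in the sources used here. No column was left unmapped.

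Here the counts were rounded to whole numbers, filtered with filterByExpr, scaled by TMM and tested with edgeR 4.0.16 (quasi-likelihood, R 4.3.3), with Benjamini-Hochberg adjustment over all 14629 tested genes and a threshold of 0.05. CPM uses TMM library sizes, and log2 CPM a prior count of 2. Intervals are at 95%. Single genes were also given a two-sided exact permutation test over 70 splits of the mice, unadjusted over the 10 genes. Alternatives were DESeq2 1.42.0, limma-voom 3.58.1, other scalings and filters, a replicate block, a number series block and each mouse left out. Total counts per mouse, given with the results, limit counting error only.

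The genes, the pathway and marker lists and the sequences shown were chosen with earlier results of these data known. Outside the 10 genes, those with an unadjusted p under 0.05 in a pathway list, those most like Apoa4 and those said to be picked later are named. The tests were run on simulated counts with known fold changes and no number series. That check required only that the largest of these changes be recovered, so it does not show which smaller changes would be called. No pair of libraries of the same genotype agreed within sampling noise (smallest chi-square per gene 41.7 over 12 pairs). Pairs across genotypes were not compared. Labels give 1 library a mouse, so p-values measure the spread between mice.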

Additional observations from a re-analysis of the deposited data

Results flagged for a closer look

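6 values stood out by fixed criteria, and no cause was tested for any of them. In a group of 4, a mouse was noted where its gap to the nearest other mouse, over the range of the group, passed Dixon's 95% value. This was run on 62 groups, where about 3.1 would pass by chance, and 4 did. WT replicate 1 had 254 CPM of Plin5, against 183 to 194 in the other WT mice. WT replicate 4 had 198 CPM of endothelial markers, against 139 to 146. WT replicate 2 had 29.2 CPM of pancreatic acinar markers, against 0.0421 to 0.612. SA/SA replicate 3 had 16.2 CPM of lymphocyte markers, against 5.38 to 6.73. None of the 10 genes passed this criterion in either genotype.

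Apoa5 and Apoc3 were noted because both SA/SA mice lay above both WT mice in the low number series and below them in the high series, which 9.49% of tested genes did in one order or the other. The interaction was -0.53 for Apoa5 (edgeR adjusted p = 0.399) and -0.25 for Apoc3 (edgeR adjusted p = 0.629), on the log2 scale.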

How the results depend on the processing

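No alternative called any of the 10 genes, and the smallest adjusted p for genotype over all of them was 0.798. For the interaction with number series, the smallest edgeR adjusted p of the 10 genes was 0.246, under library size alone. It was 0.399 in the main fit. Of 210 fold changes of single genes under alternatives, 200 kept their direction and 10 turned. Over all genes, edgeR called 0 and DESeq2 called 7. Outside the runs that left out a mouse, Apoa2 turned to -0.013 under library size alone, -0.0027 without the 50 most abundant genes and -0.016 without the 10 genes in the scale. In these 3 scalings the count of the 10 genes whose genotypes did not overlap was 0 in place of 1. Without WT replicate 2 and SA/SA replicate 3 together, chosen after seeing the data, the median of the 10 genes was 0.020 and Apoa5 was 0.075, and without WT replicate 4 as well, also chosen later, these were 0.037 and 0.12. Leaving out 1 mouse at a time, the median ran from -0.081 to -0.014, the genes called stayed at 0, also for all genes, for the other pathway genes and for the interaction, and the count without overlap at 1.

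Apoa2 ran from -0.080 (without WT replicate 1) to 0.14, and was -0.0051 without SA/SA replicate 2 and -0.00079 without SA/SA replicate 4. Apoe ran from -0.017 (without WT replicate 1) to 0.14, and Apoa5 from -0.17 to 0.046 (without SA/SA replicate 3). Apoc3 lay between -0.13 and -0.0027, the latter without WT replicate 2, Apoa1 from 0.049 (without WT replicate 1) to 0.16, Apoc1 from 0.031 (without WT replicate 1) to 0.17 and Apob from -0.11 to -0.043 (without SA/SA replicate 1). Mttp ran from -0.22 to -0.097, Apoc2 from -0.22 to -0.079 and Apoa4 from -0.67 to -0.13, each highest without SA/SA replicate 3. The cause was not tested. The replicate block called 0 genes, with a median of -0.069 for the 10. With the number series as a block, 0 genes were called and the median was -0.068. In that fit Apoa4 was -0.54 (SE 0.32), Mttp -0.17 (SE 0.099), Apoc3 -0.056 (SE 0.096) and Apoc2 -0.18 (SE 0.12). Deviations of same-numbered mice correlated from -0.111 to 0.166, over 0.1 in 2 of 4 pairs, with 3 of 4 WT mice closest to their own number. Replicate numbers also follow the number series, so these values do not settle whether same-numbered mice are pairs. The main fit did not pair mice. With 4 mice a genotype, the interval of Apoa4 leaves a change of either direction possible.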

Other observations

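Ratios between genes of 1 mouse, on the scale of CPM per kilobase, varied less in some pairs than in others. Apoe over Apob was 70.3 ± 12.6 in WT and 76.5 ± 1.22 in SA/SA (SD, n = 4), with the WT mice spread from 56.5 to 83.9 and the SA/SA mice from 75.1 to 78.0. Apob over Mttp was 2.96 ± 0.21 in WT and 3.18 ± 0.46 in SA/SA. Apoa4 over Apoa5 ran from 0.704 to 1.82 in WT and from 0.587 to 1.31 in SA/SA, so these neighbours did not keep a fixed ratio.

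Apoc4, a minor apolipoprotein gene beside Apoc2 that was named after its values were seen, measured 1032, 1213, 1045 and 1066 CPM in WT replicates 1 to 4 and 1123, 1508, 1253 and 1259.98 CPM in SA/SA replicates 1 to 4. WT replicate 2 was the only WT mouse to reach the SA/SA range. The log2 fold change was 0.24 (SE 0.12, edgeR adjusted p = 0.993; exact permutation p = 0.0571, two-sided). Hnf4a measured 932 and 668 CPM in the high-series WT mice and 1084 and 1008 CPM in the high-series SA/SA mice, against 816 and 570 CPM and 737 and 547 CPM in the low series. The difference between the series was 0.46 on the log2 scale (edgeR adjusted p = 0.34).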
